A study of Homo sapiens with 9 samples.

Results

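Serum response factor (SRF) and 9 genes of the actin cytoskeleton were followed in a SLAM-Seq experiment, in which newly made RNA is marked by a short pulse of 4-thiouridine (4sU). The genes were taken by name: SRF, ACTB, ACTG1, VCL, TPM1, TPM4, MYL9, FLNA, TAGLN and ZYX. They filled 28 of the 56868 rows of the table, or 15 distinct 3′ intervals, and made up 10 of 26869 genes. SRF is a transcription factor that binds the CArG box, a short A- and T-rich element. Its cofactors of the MRTF family are held back by monomeric actin and are released when actin polymerises. SRF then drives genes of the actin filament. The ternary complex factors of the ELK family bring SRF to immediate early genes after growth factor signalling. In epithelial cells the products of these genes form stress fibres and focal adhesions and bear the tension that the cell puts on its substrate.

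MCF10A is a line of non-transformed human mammary epithelial cells. All groups were MCF10A JUN KO cells that had been infected to express a JUN-AID-V5 fusion protein and the F-box protein TIR1, so that the auxin indole-3-acetic acid (IAA) leads to degradation of the JUN protein. The control group, no 4sU Ctrl, received no 4sU. The DMSO 4sU group received the solvent and then 100 µM 4sU for 1 h, and the IAA 4sU group received 100 µM IAA for 1 h before 100 µM 4sU for another 1 h. Each group had 3 replicates by its labels, but the 3 IAA columns were identical in every row and were counted as 1 library, so 7 libraries were analysed. The study describes its replicates as biological, without saying for these libraries what was separate, and p-values measure only the spread between them. The JUN protein was not measured in these data, and its depletion was not checked here.

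The libraries held from 18997637 to 24014195 reads. Reads summed over the distinct intervals of all genes were from 10273029 to 15179536, a sum in which nested intervals count reads again. The median T>C conversion rate, the share of T positions read as C, was from 0.0574% to 0.0599% in the 3 no 4sU libraries, 0.235%, 0.182% and 0.178% in DMSO 4sU replicates 1, 2 and 3, and 0.219% in the IAA library (genes with at least 200 reads on average). Of 6 markers of basal mammary epithelium 5 had a mean of at least 10 CPM (reads scaled to the size of the library), among them the keratin KRT5, at 519 to 709 CPM. KRT14, which marks basal cells too, was at 3.63 to 10.6 CPM. Of 5 luminal markers 3 had a mean of at least 10 CPM too. These were KRT18, KRT8 and GATA3, with means of 82.7, 20.6 and 20.3 CPM, while ESR1 and PGR were below it. None of 6 fibroblast and none of 3 leukocyte markers reached 10 CPM, and COL1A2 was at 0 in all 7 libraries. The fibroblast markers COL1A1 and DCN had means of 5.14 and 5.32 CPM.

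The SRF binding element stood in front of some of these genes, and the sequences are shown because the CArG box is the feature that names SRF target genes. Promoters from RefSeq (assembly GRCh38.p14, from 250 bases before to 50 after a start site) were found for 7 of the 10 genes. ACTB, MYL9 and TAGLN had none in the table. A CArG box, a pair of C, 6 letters that are each A or T and a pair of G, was searched on both strands and was found in 4 of the 7, against 1.60% of 27305 genes and 1.29% of 35116 promoters. SRF itself held 2 of them, beginning 30 and 10 bases before the start. The boxes of ACTG1 and FLNA each began 94 bases before the start and that of TPM4 173 bases. The capitals mark the box, in windows of 30 bases read 5′ to 3′ on the strand of the gene (SRF chr6:43171229-43171258 and chr6:43171249-43171278, plus strand; ACTG1 chr17:81512874-81512903, minus strand; TPM4 chr19:16067355-16067384, plus strand; FLNA chrX:154374709-154374738, minus strand).
SRF, upstream box: ctggggctcaCCATATAAGGagcggcctcg
SRF, downstream box: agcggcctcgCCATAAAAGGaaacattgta
ACTG1: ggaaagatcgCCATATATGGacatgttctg
TPM4: aatcctaggtCCAAATAAGGcgagggctgc
FLNA: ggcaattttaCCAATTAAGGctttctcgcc

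The letters TGANTCA of the AP-1 site, to which JUN binds with FOS proteins, were in none of the 7 promoters, and 9.37% of genes held them. The letters GGAATG of the site of the TEAD factors were in 1 of the 7, that of VCL (chr10:73997933-73997962, plus strand), where they began 171 bases before the start, against 16.7% of genes. No motif overlapped another, and the capitals here mark the TEAD letters.
VCL: gcccctcccttaGGAATGggggaggggcgg

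Whether the mRNAs of these genes took up label within the pulse was asked from DMSO 4sU against no 4sU. With 4sU the conversion rate rose for SRF, both actins, vinculin, both tropomyosins, filamin A, transgelin and zyxin, 9 of the 9 genes that could be tested (limma on the log2 rate with an offset of 0.0005, at an adjusted p of 0.05). The same test called 48.6% of all 10895 genes tested higher and 0.0918% lower. The median log2 change was 1.43 over the 9 genes and 1.27 over all genes tested. It includes TPM1 at 3.67, from the unweighted mean of its intervals. With the 0.48 of its interval with most reads, the middle value would be the 1.13 of FLNA, below 1.27. The median labelled rate in DMSO 4sU was 0.177% over the 9 genes. Over the 7005 genes with at least 200 reads on average it was 0.206%. In 9 of the 10 genes each labelled DMSO library lay above each unlabelled library, as did 62.8% of all genes tested. In total mRNA none of the 10 passed the test. Values by library below are those of the interval with most reads of each gene.

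**Figure D1:**
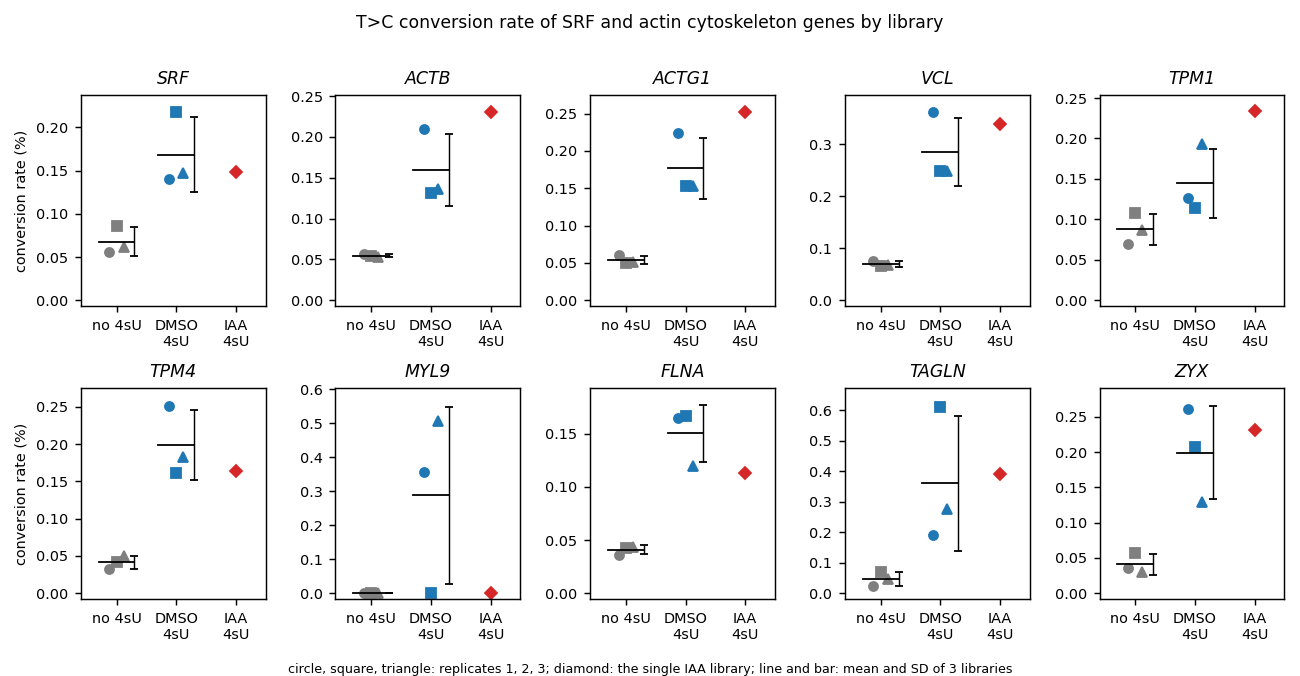
T>C conversion rate in percent (y axis, a scale of its own in each panel) of the 10 genes in the 3 no 4sU libraries, the 3 DMSO 4sU libraries and the single IAA 4sU library (x axis), with the mean and SD of 3 libraries. In all genes but MYL9 the DMSO 4sU points lie above the no 4sU points, and TAGLN and MYL9, the genes with the fewest reads, are the most scattered.

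SRF, the transcription factor, was read in an interval as long as (2319 bases) the annotated 3′ UTR chr6:43146926-43149244 (GENCODE, GRCh37, the build that the submitters' processing notes give as hg19). Its conversion rate was 0.0555%, 0.0865% and 0.0614% in the no 4sU libraries 1 to 3, 0.140%, 0.218% and 0.147% in the DMSO 4sU libraries and 0.148% in the IAA library. The rate rose by 0.88 on the log2 scale (standard error 0.26, limma adjusted p = 0.034). Its mRNA was at 51.0, 72.0 and 49.4 CPM without 4sU, at 42.8, 78.4 and 65.3 CPM in DMSO 4sU and at 53.2 CPM with IAA, from 912 to 1882 reads. The groups overlapped, replicate 2 was the highest in each, and the log2 change in mRNA was 0.023 (standard error 0.25, limma adjusted p = 0.99).

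ACTB and ACTG1 encode the cytoplasmic β- and γ-actin, the subunits of the filament itself. The ACTB interval (603 bases) was as long as the annotated 3′ UTR chr7:5566779-5567381, and the ACTG1 interval (722 bases) as the 3′ UTR chr17:79476997-79477718 (GENCODE, GRCh37). The ACTB rate was 0.0563%, 0.0543% and 0.0530% without 4sU, 0.210%, 0.131% and 0.137% in DMSO 4sU and 0.231% with IAA. The ACTG1 rate was 0.0600%, 0.0501% and 0.0513%, then 0.224%, 0.153% and 0.153%, and 0.252% with IAA. In each of the 4 labelled libraries the rate of ACTG1 was slightly above that of ACTB, and in both genes DMSO 4sU replicate 1 was the highest of its group. The rates rose by 0.98 (ACTB, standard error 0.25, limma adjusted p = 0.020) and 1.11 (ACTG1, standard error 0.24, limma adjusted p = 0.013) on the log2 scale.

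The actins differed in how evenly their mRNA was spread over the libraries. ACTB was at 895, 385 and 394 CPM without 4sU, at 378, 424 and 436 CPM in DMSO 4sU and at 358 CPM with IAA. Replicate 1 of no 4sU was the highest, and the other 6 libraries lay between 358 and 436 CPM. ACTG1 was at 2190, 2281 and 2088 CPM, then 1914, 2820 and 2455 CPM, and 2054 CPM with IAA, so that no such library appeared. The ratio of ACTB to ACTG1, used here only to compare libraries, was 0.409 in no 4sU replicate 1 and from 0.150 to 0.197 in the other 6. The log2 change of ACTB mRNA with 4sU was -0.39 (standard error 0.27, limma adjusted p = 0.73), and without replicate 1 it was 0.021. That of ACTG1 was 0.048 (standard error 0.19, limma adjusted p = 0.97). Processed copies of the actin genes can share reads with them, but the 4 ACTG1 pseudogenes in the table had at most 114 reads in a library, against at least 39667 reads of ACTG1.

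TPM1 and TPM4 encode tropomyosins, coiled coils that lie along the actin filament and govern the access of myosin. TPM4 had rates of 0.0330%, 0.0421% and 0.0501% without 4sU, 0.251%, 0.162% and 0.183% in DMSO 4sU and 0.164% with IAA. The rate rose by 1.43 on the log2 scale (standard error 0.25, limma adjusted p = 0.0066), and this was the smallest adjusted p of the 9 genes. TPM4 mRNA was at 380, 392 and 405 CPM, then 377, 453 and 457 CPM, and 401 CPM with IAA, with a log2 change of 0.056 (standard error 0.17, limma adjusted p = 0.95). TPM1 behaved less clearly. In its interval of 745 bases, which held nearly all of its reads, the rate was 0.0692%, 0.108% and 0.0864% without 4sU, 0.126%, 0.114% and 0.194% in DMSO 4sU and 0.234% with IAA. The highest unlabelled and the lowest labelled library were thus close together. The log2 change in this interval was 0.48 (limma adjusted p = 0.17), and it did not pass the test.

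The call for TPM1 rested on how its intervals were joined. With the rates of its 5 intervals averaged without weights the change was 3.67 on the log2 scale (standard error 0.92, limma adjusted p = 0.021), and with a mean weighted by reads it was 0.85 (limma adjusted p = 0.041). The other 4 intervals had from 3 to 21 reads in a library and rates up to 5.88%, so that a few reads set the unweighted mean. TPM1 mRNA was at 119, 74.4 and 74.0 CPM without 4sU, at 75.7, 95.4 and 82.3 CPM in DMSO 4sU and at 78.2 CPM with IAA. As for ACTB, no 4sU replicate 1 was the highest, and the log2 change was -0.11 (standard error 0.19, limma adjusted p = 0.91).

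MYL9 and TAGLN are genes of the contractile programme and are known best from smooth muscle. MYL9, a regulatory light chain of myosin II, was close to the limit of what these libraries could measure, with 50 to 133 reads. Its level was 2.62, 5.94 and 4.37 CPM without 4sU, 3.19, 4.79 and 4.43 CPM in DMSO 4sU and 2.49 CPM with IAA. Its rate was listed at 0 in all 3 unlabelled libraries, in DMSO 4sU replicate 2 and in the IAA library, and at 0.357% and 0.507% in DMSO 4sU replicates 1 and 3. MYL9 therefore did not pass the filter on rates, which asked for 3 of 6 libraries above 0, and its rate is not among the 9 tested. With no filter the log2 change of the rate was 2.17 (limma adjusted p = 0.14). Without replicate 2, whose labelled rate was 0, it was 3.25 (limma adjusted p = 0.021). That fit asked for fewer libraries above 0, and only the labelled ones met it, with all unlabelled rates at 0. Its p-value is therefore no separate check of a rise. The log2 change in its mRNA was -0.070 (standard error 0.30, limma adjusted p = 0.97).

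TAGLN encodes transgelin, an actin-crosslinking protein. It had the highest mean labelled rate of the 9 tested genes. The rate was 0.0226%, 0.0681% and 0.0460% without 4sU, 0.193%, 0.613% and 0.276% in DMSO 4sU and 0.392% with IAA. The rate rose by 2.0 on the log2 scale (standard error 0.45, limma adjusted p = 0.015). Behind these rates stood 311 to 803 reads. TAGLN mRNA was at 15.4, 31.2 and 23.7 CPM, then 28.4, 33.4 and 32.5 CPM, and 29.9 CPM with IAA. The labelled libraries lay close together and the unlabelled ones did not. The log2 change in mRNA was 0.40 (standard error 0.26, limma adjusted p = 0.71), and 0.15 without replicate 1.

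VCL, ZYX and FLNA act where filaments meet adhesions and each other. VCL encodes vinculin, which couples talin to actin, and its mRNA was the steadiest of the 10. It was at 226, 241 and 237 CPM without 4sU, at 234, 247 and 254 CPM in DMSO 4sU and at 239 CPM with IAA. The highest of the 3 unlabelled libraries was 1.07 times the lowest, and in DMSO 4sU 1.09 times. The VCL rate was 0.0762%, 0.0656% and 0.0680%, then 0.361%, 0.248% and 0.248%, and 0.340% with IAA. It rose by 1.47 on the log2 scale (standard error 0.27, limma adjusted p = 0.0080).

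ZYX encodes zyxin, a LIM protein that gathers at strained stress fibres. Its rate was 0.0362%, 0.0573% and 0.0294% without 4sU, 0.262%, 0.207% and 0.130% in DMSO 4sU and 0.232% with IAA, a rise of 1.43 on the log2 scale (standard error 0.30, limma adjusted p = 0.011). The ZYX mRNA was at 65.9, 59.4 and 70.2 CPM without 4sU, at 133, 56.8 and 98.5 CPM in DMSO 4sU and at 111 CPM with IAA. DMSO 4sU replicate 1 was the highest library and replicate 2 of the same group the lowest. The log2 change in mRNA was 0.41 (standard error 0.27, limma adjusted p = 0.72), and 0.091 without replicate 1.

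FLNA encodes filamin A, which crosslinks filaments into networks. Its rate was 0.0359%, 0.0429% and 0.0439% without 4sU, 0.165%, 0.166% and 0.120% in DMSO 4sU and 0.113% with IAA, a rise of 1.13 on the log2 scale (standard error 0.23, limma adjusted p = 0.010). FLNA mRNA was at 353, 326 and 314 CPM without 4sU, at 968, 355 and 440 CPM in DMSO 4sU and at 973 CPM with IAA. DMSO 4sU replicate 1 and the IAA library stood far above the other 5 libraries, which lay between 314 and 440 CPM. FLNA was the only 1 of the 10 genes in which each DMSO 4sU library lay above each no 4sU library in CPM, and 10% of all genes tested did so. The log2 change was 0.62 (standard error 0.31, limma adjusted p = 0.57), and without replicate 1 it was 0.18.

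**Figure D2:**
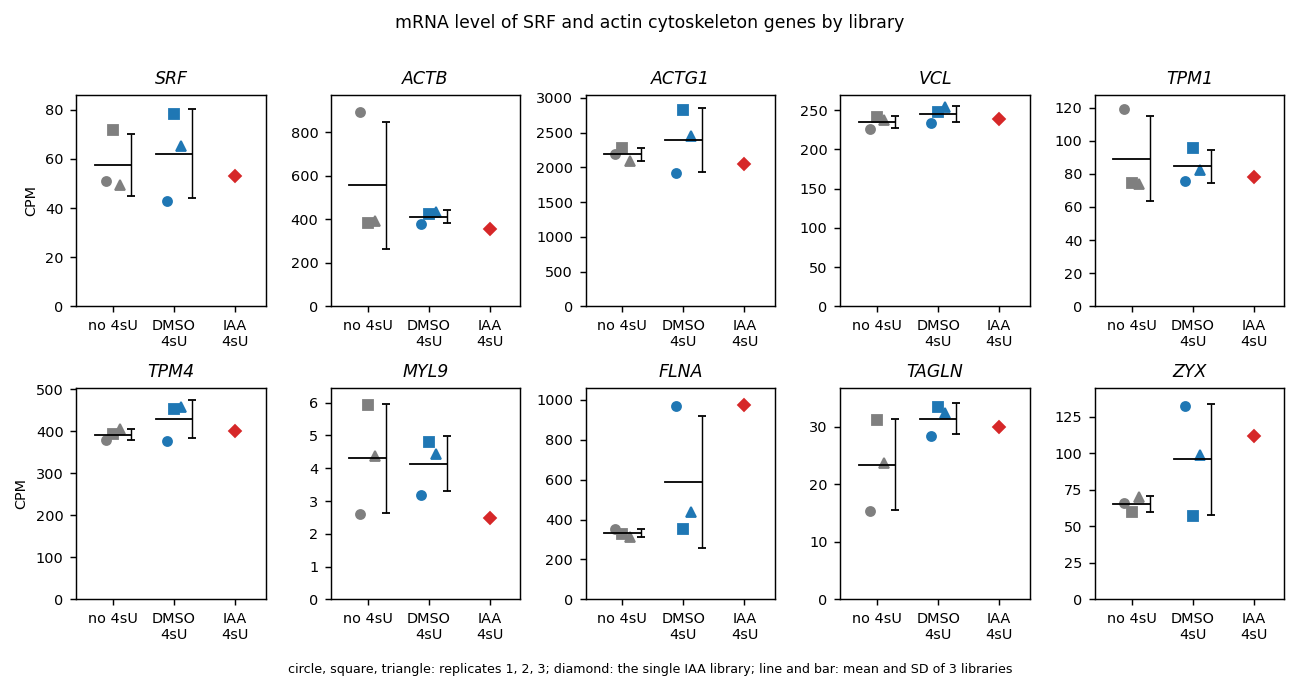
mRNA level in CPM (y axis, from 0, a scale of its own in each panel) of the 10 genes in the 3 no 4sU libraries, the 3 DMSO 4sU libraries and the IAA 4sU library (x axis), with the mean and SD of 3 libraries. ACTB and TPM1 stand high in no 4sU replicate 1 (circle), FLNA in DMSO 4sU replicate 1 and in the IAA library, whereas VCL hardly varies.

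In total mRNA, then, 0 of the 10 genes passed limma's test on log2(CPM + 1) in either direction, while over all 12286 genes tested 0% were called higher and 1.78% lower. Before adjustment limma had 0 of the 10 under a p of 0.05. On the recovered reads edgeR and DESeq2 also called 0 after adjustment, and before it each had 1, FLNA (unadjusted p = 0.041 with edgeR and 0.015 with DESeq2). In limma with the replicate block FLNA had an unadjusted p of 0.046 (adjusted p = 0.33), and without replicate 2 FLNA and ZYX had unadjusted p-values of 0.029 and 0.024. The median log2 change was 0.036 over the 10 genes and 0.0055 over all genes. In bulk RNA, fewer cells that express a gene and less mRNA per cell cannot be told apart. For the conversion rate, leaving out replicate 1, 2 or 3 from both groups left 2 of the 9 calls each time, with 4 libraries in each fit. These were TPM4 and VCL without replicate 1, TPM4 and TAGLN without replicate 2, and TPM4 and ZYX without replicate 3. All 9 changes stayed positive in these fits.

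**Figure D3:**
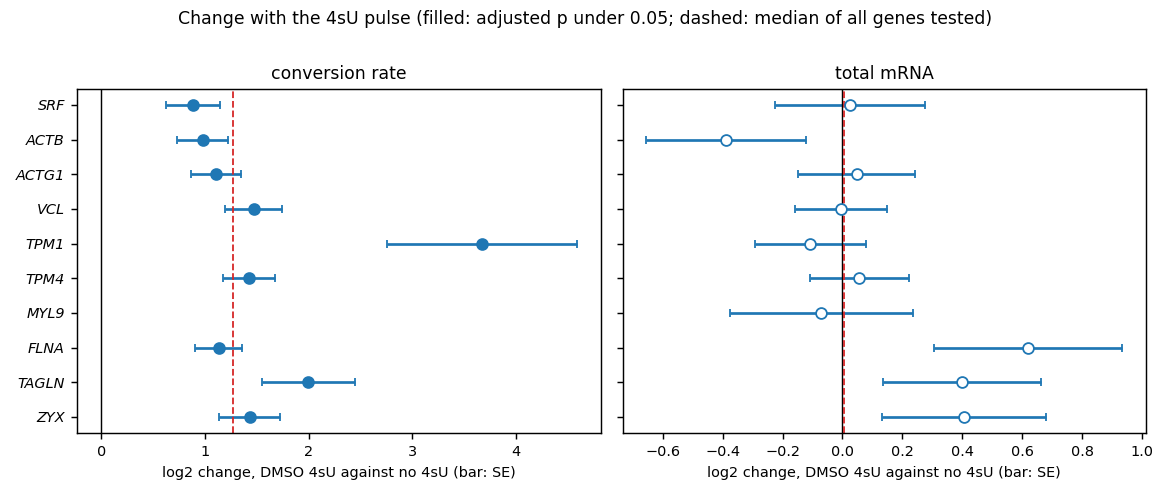
log2 change in conversion rate (left) and in total mRNA (right) of the 10 genes, DMSO 4sU against no 4sU, with bars of 1 standard error. Filled points passed an adjusted p of 0.05, which 9 did for the rate and 0 for mRNA, and the dashed line is the median of all genes tested (1.27 and 0.0055). MYL9 did not pass the filter on rates, and the point of TPM1 rests on the unweighted mean of its intervals.

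The rate after the pulse can be ordered, since it is a share of T positions and does not scale with the length of the interval. It still holds the background of each gene. In DMSO 4sU, the mean rate was 0.360% ± 0.222 (SD, n = 3) for TAGLN, 0.286% ± 0.0654 (SD, n = 3) for VCL, 0.199% ± 0.0661 (SD, n = 3) for ZYX and 0.199% ± 0.0469 (SD, n = 3) for TPM4. ACTG1 was at 0.177% ± 0.0412 (SD, n = 3), SRF at 0.168% ± 0.0432 (SD, n = 3), ACTB at 0.159% ± 0.0440 (SD, n = 3), FLNA at 0.150% ± 0.0266 (SD, n = 3) and TPM1 at 0.144% ± 0.0430 (SD, n = 3). From ZYX downwards each gene differed from its neighbour by less than the SD of either, and TAGLN from VCL by less than the SD of TAGLN. The step from VCL to ZYX exceeded both SDs, and VCL lay above ZYX in each of the 3 libraries. With the mean no 4sU rate of each gene subtracted, the order of the lower genes changed. FLNA was then at 0.109%, ACTB at 0.105%, SRF at 0.101% and TPM1 at 0.0566%. Among 7005 genes with at least 200 reads, whose median was 0.206%, 78.0% had a lower rate than TAGLN, 68.7% a lower rate than VCL, 33.8% than ACTB and 27.3% than TPM1. SRF, with 37.5% of genes below it, was thus near the actins rather than among the strongly labelled genes.

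How much a gene moved between libraries of its own group also set the 10 genes apart from each other. For FLNA the highest DMSO 4sU library was 2.73 times the lowest, a spread that 0.509% of 6875 genes matched or exceeded in that group. For ZYX it was 2.33 times, with 1.57% of genes as wide. For ACTB it was 2.32 times without 4sU, with 4.41% of genes as wide there. Across the 7 libraries the log2 CPM of FLNA and ZYX had a Pearson r of 0.90, as had SRF and ACTG1, and ACTB and TPM1 had 0.92. These pairs were picked as the highest among the genes other than MYL9. The lowest was -0.85, for ACTB and TAGLN. These values describe 7 libraries in 3 groups, are given as a description and were not recomputed with libraries left out. FLNA and ZYX shared high values in DMSO 4sU replicate 1 and the IAA library, and ACTB and TPM1 a high no 4sU replicate 1. SMTN, an actin-binding gene from the list of smooth muscle markers, was at 90.1 CPM in DMSO 4sU replicate 1 and 67.5 CPM with IAA, against 29.7 and 45.4 CPM in DMSO 4sU replicates 2 and 3. The other smooth muscle markers did not reach 10 CPM, DES was at 0 in all 7 libraries, and the list summed to between 27.0 and 61.7 CPM without 4sU, between 30.6 and 90.4 CPM in DMSO 4sU and to 68.0 CPM with IAA. Any part of this in the values of FLNA and ZYX was not tested.

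Among 7247 genes, those whose log2 CPM followed SRF most closely over the 7 libraries were AURKA (r = 0.972), PID1 (0.972), MRPL13 (0.969), YWHAQ (0.968) and SFXN1 (0.965). AURKA, a mitotic kinase, was at 37.8, 49.2 and 36.2 CPM, then 32.8, 54.3 and 41.5 CPM, and 36.9 CPM with IAA, so it shared the high replicate 2 with SRF. For ACTB they were HOMER1 (r = 0.994), ACOT7 (0.989), EZR (0.982), AKAP1 (0.977) and NIP7 (0.975). EZR encodes ezrin, which links actin to the membrane, and it was at 89.0 CPM in no 4sU replicate 1 and between 51.8 and 61.8 CPM elsewhere. For FLNA, a gene added after its values were seen, TMX2 was the closest, at 218 CPM in DMSO 4sU replicate 1, 210 CPM with IAA and between 73.0 and 111 CPM in the other 5 libraries. ACTB and EZR thus shared 1 high library, and FLNA and TMX2 shared 2.

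The other genes of the pathway were counted in the same fits. Of 6 SRF cofactors the rate rose in 5 and the mRNA changed in 0. MRTFA and MRTFB, the actin-sensing cofactors, had mean levels of 6.98 and 9.26 CPM over the 7 libraries. The LIM protein FHL2 had a rate of 0.0528% without and 0.659% with 4sU (means of 3, adjusted p = 0.0019 by limma), and ELK3, a ternary complex factor, of 0.0709% and 0.280% (adjusted p = 0.014 by limma). ELK4 was at 0.0578% and 0.195% in its interval with most reads. Its test used the unweighted mean of its intervals, where the log2 change was 3.40 (adjusted p = 0.0092 by limma). Whether the interval with most reads would pass alone is not shown. ELK1, at 0.122% and 0.166%, did not pass (adjusted p = 0.56 by limma).

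Of 19 contractile and actin-binding genes tested, among 21 listed, 7 had a higher rate and 0 a changed mRNA. The crosslinker ACTN1 went from 0.0597% to 0.190%, the non-muscle myosin heavy chain MYH9 from 0.0679% to 0.232% and the light chain MYL12B from 0.0588% to 0.257%, and these passed. The light chain MYL12A, at 0.0633% and 0.122%, did not (adjusted p = 0.059 by limma).

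Of 15 focal adhesion genes 13 had a higher rate and 0 a changed mRNA. The adaptor PXN was at 0.0497% without and 0.147% with 4sU, and the zyxin relative LPP at 0.0682% and 0.284%. Talin TLN1 was at 0.0729% and 0.188% and PDLIM5 at 0.0836% and 0.235%, and all 4 passed. The PDLIM5 rates are of its interval with most reads, but its test used the unweighted mean of intervals (log2 change 3.99). Whether the interval with most reads would pass alone is not shown. These lists fell on either side of the background of 48.6%, from 7 of 19 to 13 of 15 genes called.

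The immediate early targets of SRF held the mRNA calls among these lists. Of 5 such genes tested for the rate 5 rose, against 48.6% of all genes, with a median log2 change of 5.05. Of 6 tested in total mRNA 4 were lower with 4sU, against 1.78% of all genes, with a median log2 change of -1.21. FOS, which pairs with JUN in AP-1, was at 9.54, 9.29 and 9.32 CPM without 4sU and at 4.42, 2.33 and 2.39 CPM in DMSO 4sU, and its mRNA fell by 1.56 on the log2 scale (standard error 0.24, limma adjusted p = 0.011). IER2 was at 22.0, 39.2 and 31.6 CPM, then 10.2, 8.16 and 10.8 CPM, and changed by -1.65 (standard error 0.25, limma adjusted p = 0.0096). JUNB was at 28.8, 35.9 and 41.0 CPM, then 15.9, 11.6 and 17.7 CPM, and changed by -1.26 (standard error 0.23, limma adjusted p = 0.022). The zinc finger factor EGR1 was at 66.3, 47.4 and 48.1 CPM, then 36.1, 19.8 and 21.1 CPM, and changed by -1.16 (standard error 0.23, limma adjusted p = 0.037). The groups did not overlap in these 4 genes, but the test on the same values had picked them. The share of all genes lower in this way was not counted. The other 2, FOSB at 0.54 (limma adjusted p = 0.65) and MCL1 at -0.25 (limma adjusted p = 0.75), were not called and lay within the range of the 10 genes described. FOSB and MCL1 are outside the rule for named genes and were added after their values were seen. The labelled rates of the 4 called genes, from 2.70% for IER2 to 7.88% for EGR1 as means of 3, were far above the 0.360% of TAGLN. The difference between these genes and the cytoskeletal genes was not tested.

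**Figure D4:**
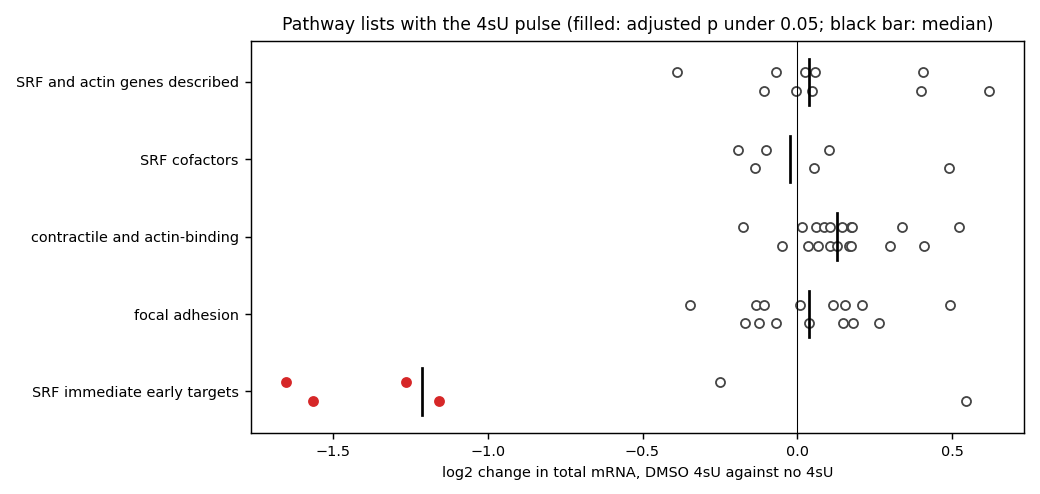
log2 change in total mRNA with the 4sU pulse (x axis) for each tested gene of 5 gene groups (rows), DMSO 4sU against no 4sU, with a black bar at the median. Filled points passed an adjusted p of 0.05, and they are 4 immediate early targets of SRF below -1.1, whereas the 10 genes described lie between -0.39 and 0.62 with no call.

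IAA 4sU was set against DMSO 4sU to ask what follows acute loss of JUN. With 1 IAA library the spread within that group is not known, so its value is placed against the range of the 3 DMSO 4sU libraries, and the difference from their mean could not be checked on replicates. In the conversion rate, with each library centred on its own median, 3 of the 10 genes lay above the DMSO 4sU libraries, where 23% of 11762 genes did, and 3 lay below, where 26.4% did. The actins were the clearest above. The rate of ACTB was 0.29 above the DMSO mean on the log2 scale and that of ACTG1 0.28, while the DMSO 4sU libraries themselves lay between -0.052 and 0.084 for ACTB and between -0.033 and 0.037 for ACTG1. VCL, at 0.079, was above them by a small step, and its uncentred rate was within their range. FLNA was at -0.44 and TPM4 at -0.35, both below, though TPM4 was within the range before centring. MYL9 counted as below from its rate of 0, which DMSO 4sU replicate 2 had as well. SRF at -0.27, TPM1 at 0.58, TAGLN at 0.089 and ZYX at 0.062 were within the range. The TPM1 value is of the unweighted mean of its intervals. In its interval with most reads the uncentred IAA rate, 0.234%, was above the DMSO 4sU rates of 0.126%, 0.114% and 0.194%. The median over the 10 genes was 0.071, and over all genes 0.0023.

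In total mRNA with TMM library sizes, 0 of the 10 genes lay above the DMSO 4sU libraries, where 21% of 12271 genes did, and 5 below, where 20.7% did. These 5 were ACTB at -0.29, MYL9 at -0.67, TPM1 at -0.21, TAGLN at -0.15 and VCL at -0.12 on the log2 scale. TAGLN lay next to the lowest DMSO 4sU library, which was at -0.15 too, and VCL next to one at -0.075. SRF at -0.27, ACTG1 at -0.29, TPM4 at -0.18, ZYX at 0.21 and FLNA at 0.78 were within the range. For FLNA and ZYX this was because DMSO 4sU replicate 1 was higher still after TMM scaling. With the library sizes as deposited the counts were 1 above and 2 below. FLNA was then above, at 973 CPM with IAA against 968 CPM in DMSO 4sU replicate 1. Without DMSO 4sU replicate 1 they were 2 above and 8 below. Over all genes the log2 CPM of the IAA library had a Pearson r of 0.991 with DMSO 4sU replicate 1, against 0.964 and 0.978 with replicates 2 and 3 (7379 genes).

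The rate multiplied by the CPM follows the amount of newly made mRNA and was available for the 9 genes other than MYL9. Both were taken from the interval with most reads, unlike the centred rates above. ACTG1 at 0.25 and TPM1 at 0.54 on the log2 scale were above the DMSO 4sU libraries, 2 of 9, where 28.6% of 9318 genes were. With the mean rate of the no 4sU libraries subtracted first, 3 genes were above. ACTG1 was then at 0.45, TPM1 at 1.44 and ACTB at 0.54. Without this subtraction TPM4 at -0.43 was below, 1 of 9, where 19.1% of genes were. The other 6 were within the range, ACTB at 0.28, FLNA at 0.39, ZYX at 0.49, TAGLN at 0.15, VCL at 0.15 and SRF at -0.42. The median of the 9 was 0.25, and of all genes 0.19. SRF itself was thus below the DMSO mean and inside the DMSO range in all 3 measures. Without DMSO 4sU replicate 1, 6 of 9 were above and 2 below. A limma fit over the 7 libraries, in which the lone IAA library is assumed to vary like the others, called 0 of the 10 genes for the rate (smallest adjusted p = 0.83) and 0 for mRNA (smallest adjusted p = 1.00), with 0 at an unadjusted p under 0.05 for each.

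**Figure D5:**
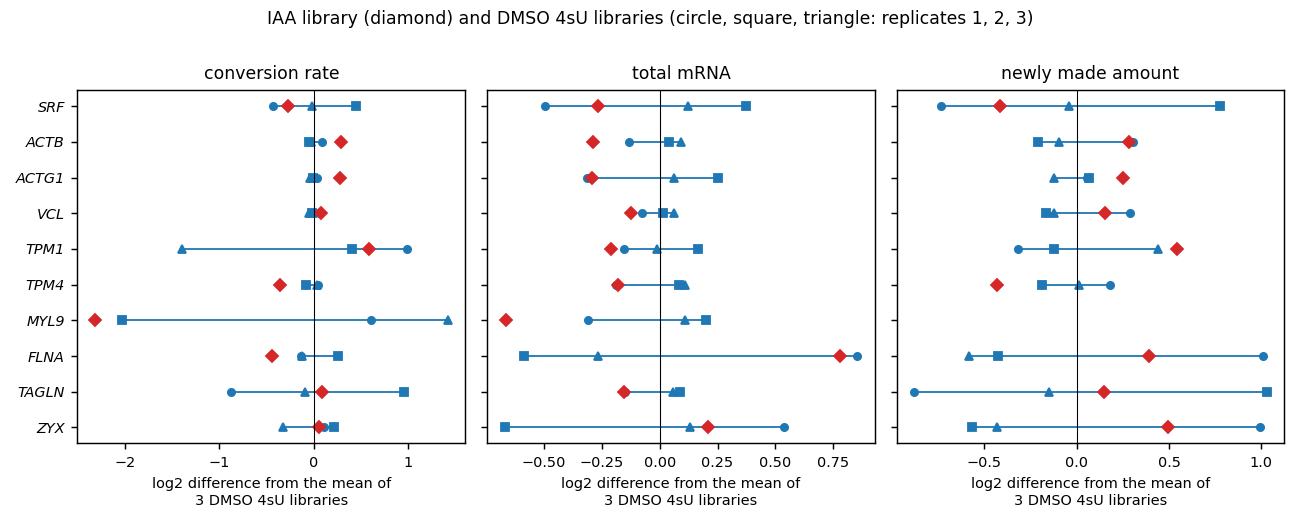
Difference of the IAA 4sU library (diamond) and of the 3 DMSO 4sU libraries (circle, square and triangle for replicates 1, 2 and 3) from the mean of the DMSO 4sU libraries, in log2 units (x axis), for the rate, total mRNA and the newly made amount of the 10 genes (MYL9 has no newly made amount). The actin rates lie to the right of the DMSO points, and FLNA mRNA lies beside replicate 1.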

How the data were processed

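SLAM-Seq 3′-end libraries of MCF10A cells were used. The authors ran the nf-core SLAM-Seq pipeline on genome build hg19 and deposited 1 table with, per RefSeq 3′ interval and library, the T>C conversion rate (a fraction from 0 to 1, background not subtracted) and CPM. The deposited CPM are a signal here, since identifiers that share an interval repeat its reads. They were whole multiples of 1 read (within 0.01 reads) in 100% of values, which gave the reads. Coverage of T positions was not used, so the counting error of a rate is unknown. All per-sample columns were used (0 left out).

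Identifiers were matched to symbols through a RefSeq table of GRCh38.p14 (97.7% of rows), used for names and promoters only. Repeated rows were used once. For genes with several intervals (19.7%) rates were averaged and CPM summed. Nested intervals then count reads again. Rates above 0 in at least 3 of 6 libraries were tested with limma 3.58.1 (trend, robust, R 4.3.3) on log2(rate + 0.0005). Total mRNA of at least 0.5 CPM in at least 3 of 6 libraries was tested likewise on log2(CPM + 1) after TMM scaling, where a fold change understates that of low genes. Alternatives on the recovered reads were edgeR 4.0.16, which called 218 genes lower and 0 higher, and DESeq2 1.42.0. P-values were adjusted over all genes (Benjamini-Hochberg). IAA 4sU, as 1 library, was compared with the range of 3 DMSO 4sU libraries, for rates above 0 in at least 2 of 4 labelled libraries.

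On simulated data limma recovered 99.5% of 200 genes changed 3-fold in mRNA (12285 genes, 12 false calls) and 87.5% of 200 changed 4-fold in rate (10781 genes, 18 false of 193 calls). The simulated reads had the same spread for all genes. The simulated rates varied by counting alone, with an assumed number of T positions a read and no spread between replicates. These shares therefore do not measure the power of the tests on the real libraries.

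Same-numbered libraries with and without 4sU deviated together in total mRNA (r = 0.41, 0.34 and 0.48 over 7379 genes). In the rate the values were 0.011, -0.0093 and 0.0086. Rates without 4sU are background only, so these low values cannot show whether the rates are paired.

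All members are named. Of each pathway list at most 4 genes are named, those with the smallest p in total mRNA among the called and otherwise those with most CPM, and MRTFA, MRTFB, SMTN and the likeness of FLNA were added after their values were seen. The 5 genes most like SRF and ACTB are named by Pearson r. A further list of genes is not reported here. The members and lists were chosen with earlier results of these data known.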

Additional observations from a re-analysis of the deposited data

How the results depend on the processing

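Each alternative was fixed with the tests. For the conversion rate with 4sU, the 9 members called stayed between 7 and 9 under the other pseudocounts, filters, interval rules and the replicate block. The members called were from 2 to 3 when 1 replicate number was left out. MYL9 was added without replicate 2, where the filter asked for fewer libraries above 0 and only its labelled ones met it. In the fits with 1 replicate number left out, 2 of the 9 remained each time. Genes higher were from 2243 to 2782 and genes lower from 30 to 42 in those fits, which have fewer libraries, and 6 genes were lower with at least 200 reads. With the replicate block 7 members passed, without ACTB (adjusted p = 0.053, limma) and SRF (adjusted p = 0.061, limma).

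In total mRNA no setting called a member. Genes higher were 2 with no filter, 5 with DESeq2 and from 0 to 3 with a replicate left out. Genes lower were 429 with DESeq2, 275 with the replicate block and from 27 to 461 with a replicate left out, with 461 without replicate 1. Changes near 0 turned sign when a replicate was left out: SRF from -0.088 to 0.14, ACTB from -0.60 to 0.021, ACTG1 from -0.028 to 0.15, VCL from -0.052 to 0.026, TPM1 from -0.28 to 0.13 and MYL9 from -0.24 to 0.083. VCL was 0.0011 with no filter, 0.062 with the deposited library sizes and 0.019 with DESeq2. The cause was not tested.

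For IAA, 1 member lay below in the rate with no centring. In mRNA 1 was above and 2 below with the deposited library sizes, and with a DMSO 4sU replicate left out from 0 to 2 were above and from 5 to 8 below. In the newly made amount from 2 to 6 were above and from 1 to 2 below. No paired analysis was possible because the IAA columns are 1 library whose replicate number is not known. Depth limits MYL9, with 50 reads with IAA, most.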
